A study of Homo sapiens with 4 samples.

Results

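The collagen genes described here are those whose symbol is COL, a type number, A and a chain number, with no suffix, and which have an entry in the table of log2 CPM values (counts scaled to the library total) deposited with the study. They were 29 of the 16137 genes in that table, of which 16085 could be given a symbol from their Ensembl identifier. By type they were divided into 7 fibrillar genes (types I, II, III, V and XI), 3 basement membrane genes (type IV) and 19 genes of other types. The raw count table listed 44 collagen symbols. The 15 without a log2 value held between 0 and 28 counts summed over all libraries, against at least 37 for the members. COL2A1, COL11A1, COL4A3, COL4A4 and COL4A6 were among these 15, so type II was not represented and type XI was represented by COL11A2 alone.

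Polyadenylated RNA was sequenced from Hs578T, an established line from a human breast carcinoma. All cells were co-transfected with GFP, together with a scrambled non-targeting RNA (SCR) or an siRNA against TLN1 (siTLN1), the gene of the integrin adaptor talin-1, at 1.6 µM and were collected 48 h later. Each group held 2 biological replicates of this 1 line. The count columns name the group and carry a number that recurs in both groups and matches no label, so libraries are called a and b here, and a shared letter was not treated as a pair.

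Collagens are secreted proteins in which chains built of glycine-led repeats wind into a triple helix. Fibrillar collagens assemble outside the cell into banded fibrils, in which type I is the main component and type V sets the start and width of fibrils, whereas type IV forms the sheet-like network of basement membranes. Other types sit on fibril surfaces (XII, XIV), form beaded filaments (VI) or hexagonal lattices (VIII), anchor epithelia (VII, and the transmembrane type XVII) or carry an anti-angiogenic fragment (XVIII). Integrins that bind collagen are coupled to actin through talin.

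Total counts per library ran from 31854322 to 46353297. TLN1 itself stood at 868 and 874 CPM (here with the TMM correction of edgeR) in SCR and at 51.9 and 44.8 CPM in siTLN1, or 5.55% of the SCR mean. The label calls the cells epithelial, but 5 of 12 epithelial markers passed the filter on low counts. GRHL2 had 0 counts and CDH1 stood between 0.41 and 0.85 CPM in the 4 libraries. KRT18 and KRT14 were the highest of the list, at SCR means of 117 and 118 CPM. The list summed to 232 to 279 CPM in SCR and 198 to 211 CPM in siTLN1. All 8 mesenchymal markers passed, with sums of 33324 to 36224 CPM in SCR and 35120 to 40654 CPM in siTLN1. FN1 made up most of these sums (SCR mean 24926 CPM). CDH2 fell from 569 and 535 CPM in SCR to 303 and 293 CPM in siTLN1. SPARC fell from 5119 and 4917 CPM to 3705 and 3500 CPM. These 2 of the 8 had an adjusted p under 0.05 in the test described below. All 7 fibroblast markers passed too, with sums of 8652 to 9510 CPM in SCR and 8222 to 9813 CPM in siTLN1. The smooth muscle or pericyte list summed to 821 to 839 CPM and 857 to 904 CPM. Endothelial markers summed to between 4.53 and 6.20 CPM and leukocyte markers to between 1.32 and 1.82 CPM over the 4 libraries. In these bulk libraries a lower level in every cell and fewer expressing cells cannot be told apart.

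Most collagen transcripts, like most genes, differed little between the groups, and these were mainly the abundant ones. Of the 29 collagen genes, 4 had an adjusted p under 0.05 by the quasi-likelihood test of edgeR, adjusted by the Benjamini-Hochberg method over all 16137 genes, and are referred to as called. This share of 13.8% stands beside 6.07% over all genes. It includes COL25A1, which met the filter on low counts through its siTLN1 libraries, where it is high, so its call is not independent of that filter. COL8A2 and COL25A1 were higher in siTLN1 (2 of 29, against 2.3% of all genes called higher), and COL5A1 and COL17A1 were lower (2 of 29, against 3.77% of all genes called lower). The median log2 fold change of the 29 genes was −0.0035, against 0.0033 over all genes tested, and 17 of the 29 (58.6%) lay within 0.2 of no change on the log2 scale, as did 59.1% of all genes. An unadjusted p under 0.05 was found for 9 (31.0%), against 19.8% of all genes. The libraries of the groups did not overlap for 12 of 29 collagen genes (41.4%), against 48.4% of all genes.

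**Figure D1:**
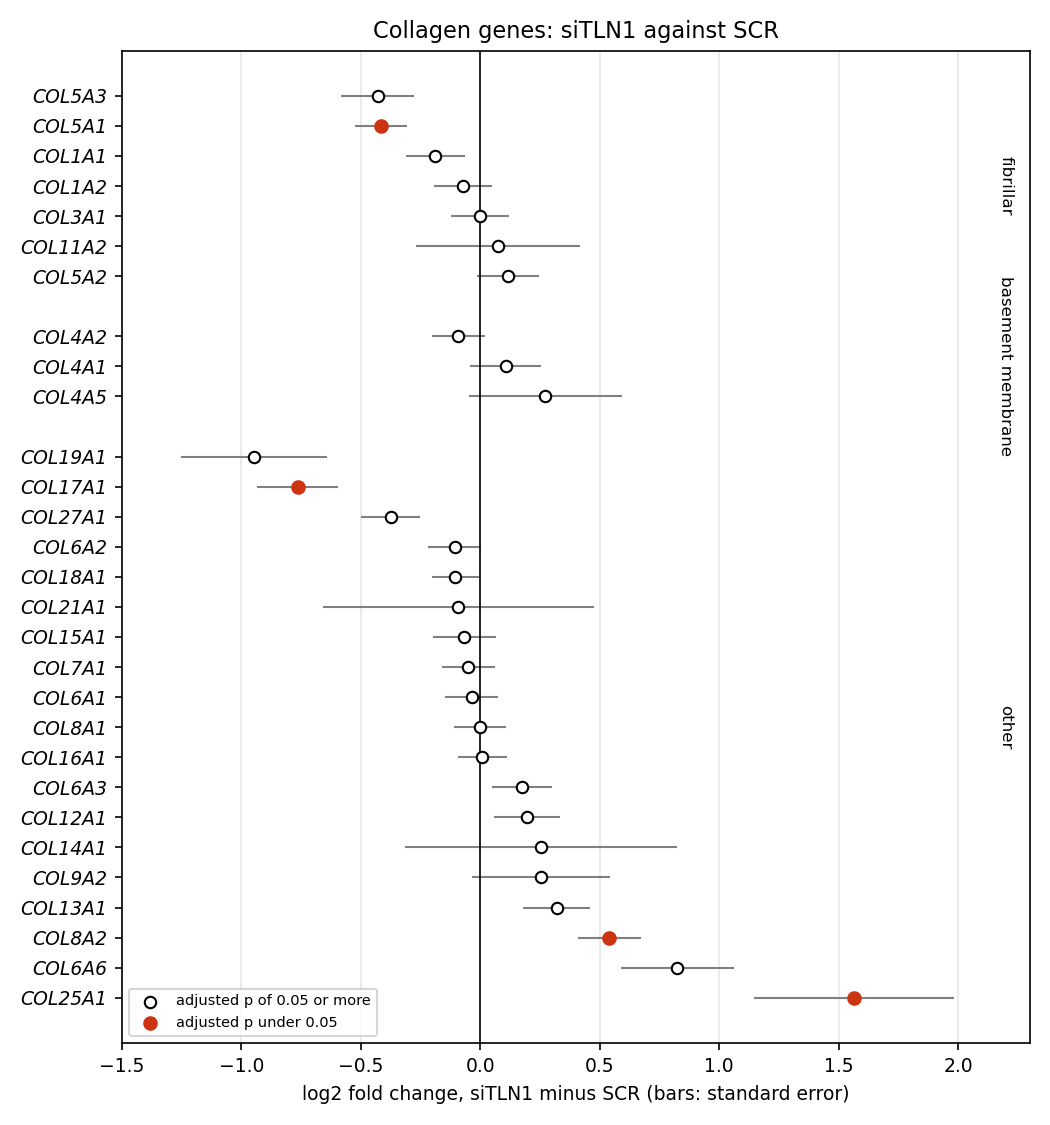
Log2 fold change of each collagen gene (siTLN1 minus SCR, x axis) from the fit across all genes, with its standard error as a bar, grouped by class on the y axis. Red points mark the 4 genes with an adjusted p under 0.05, at −0.76 (COL17A1), −0.42 (COL5A1), 0.54 (COL8A2) and 1.56 (COL25A1), while most other points sit near 0.

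The collagen genes took 4.51% and 4.60% of all counts in SCR libraries a and b and 4.71% and 4.13% in siTLN1 libraries a and b, so the groups overlapped. Fibrillar genes held 2.68% and 2.77% in SCR and 2.65% and 2.35% in siTLN1, both siTLN1 values being the lower ones. Type IV held 0.289% and 0.267% against 0.317% and 0.245%, and the remaining types 1.54% and 1.56% against 1.74% and 1.54%. COL1A1, COL1A2 and COL6A3 alone made up between 63.1% and 64.2% of the collagen counts in the 4 libraries.

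On a scale corrected for exon length (RPKM, the CPM per kilobase of exon), the mean SCR levels spanned from 0.0313 for COL25A1 to 1246 for COL1A1. The 8 genes with the highest RPKM over all libraries were COL1A1, COL1A2, COL3A1, COL6A1, COL6A3, COL6A2, COL5A2 and COL5A1. Exon length counts every annotated isoform, so RPKM understates genes with many alternative exons. Where the mean reached 100 CPM (16 genes), COL5A1 was the 1 called gene (6.25%, against 8.05% of all genes at that level) and 14 lay within 0.2 of no change (87.5%, against 75.4%). Under 100 CPM, 3 of 13 collagen genes lay within 0.2 of no change (23.1%, against 56.6% of all such genes). An unadjusted p under 0.05 in edgeR was found for 7 of the 13 (53.8%, against 19.4%). Their median standard error was 0.29, against 0.12 for the 16 more abundant collagen genes. Of the 13, 3 were called (23.1%, against 5.77%), and these include COL25A1, which met the filter on low counts through its siTLN1 libraries.

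**Figure D2:**
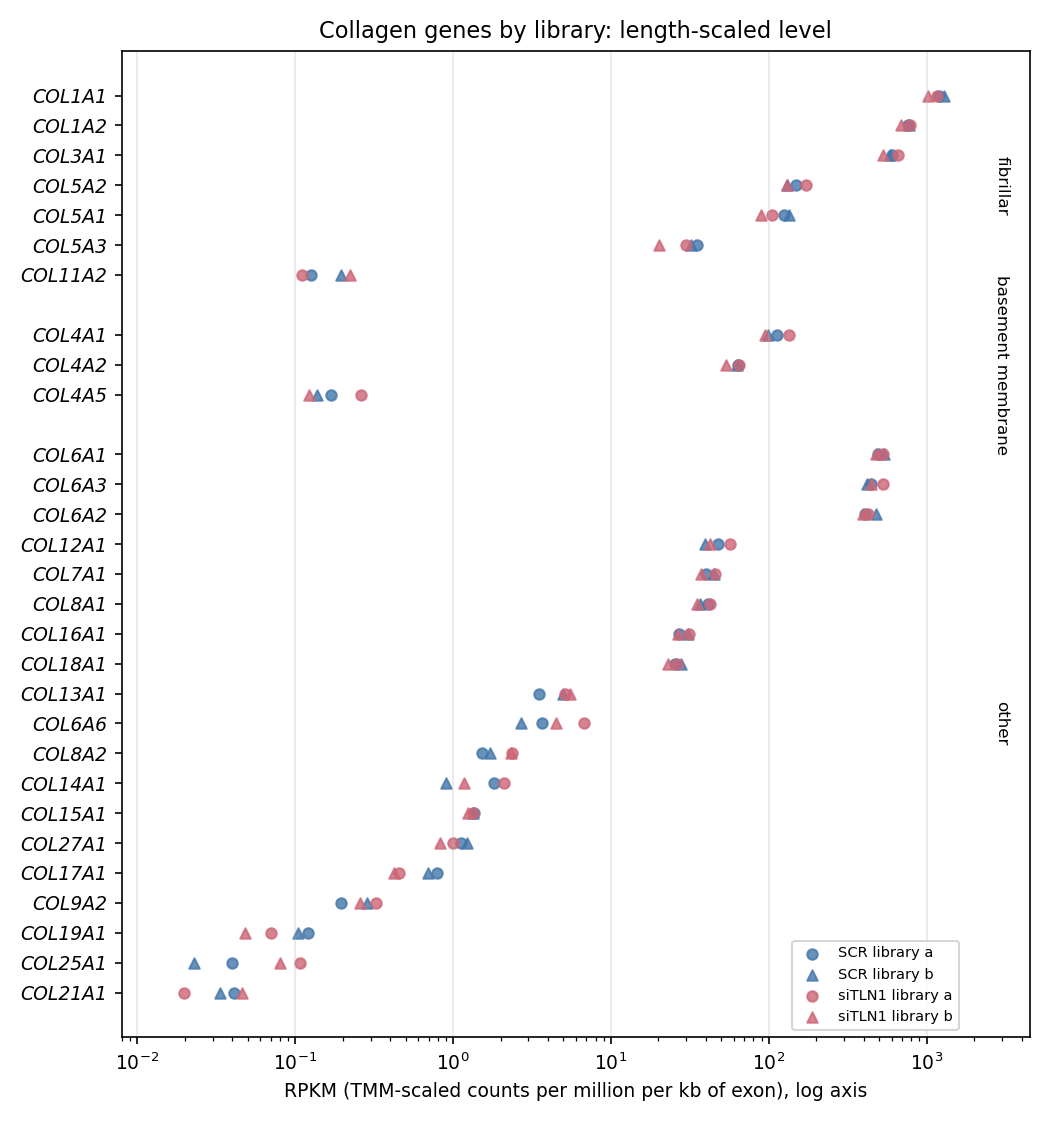
Length-scaled level (RPKM, logarithmic x axis) of the 29 collagen genes in each of the 4 libraries, ordered by class and level on the y axis (circles, libraries a; triangles, libraries b). Colours mark the groups, which lie on top of each other for the abundant genes, and the levels run from under 0.1 for COL25A1 and COL21A1 in SCR to 1246 (SCR mean) for COL1A1.

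The transcripts were searched for the 7-base word GACAACA, because its presence in 3′ UTRs went with lower values across genes in earlier results of these data. In 1 GENCODE 29 transcript per gene (the one with the longest coding sequence), 941 of 12860 protein-coding genes tested held the word in the 3′ UTR, with a median log2 fold change of −0.098 against 0.013 for the others, and 16.8% of them were called lower against 3.41%. Among the 11919 genes with no 3′ UTR copy, 1875 (15.7%) held it in the coding sequence, with a median of −0.024 against 0.019, and 6.24% of these were called lower against 2.89%. Of the 29 collagen genes, 7 (24.1%) held it in the coding sequence, which is long in this family (median 4500 bases, against 1443 over all genes). Both collagen genes called lower hold it in their coding sequence, COL5A1 with 2 copies. These sites are shown 5′ to 3′ with the word in capitals and 11 bases on each side.
COL5A1, exon 2, chr9:134690962-134690990, plus strand: ggaataacaaaGACAACAggcttttgcgc
COL5A1, exon 65, chr9:134835152-134835180, plus strand: agatgtcctatGACAACAacccctacatc
COL17A1, exon 14, chr10:104060195-104060223, minus strand: tcctagagaaaGACAACAcacctgccaag
Coordinates are of GRCh38. The other coding copies lie in COL6A3, COL11A2, COL12A1, COL16A1 and COL19A1, whose log2 fold changes were 0.18, 0.075, 0.20, 0.0086 and −0.95. The 7 genes with a coding copy had a median of 0.0086 and the 22 without one a median of −0.020. The word was chosen from these same data, so the shares called lower with it are not independent evidence. Whether the word bears on the level of any collagen transcript was not tested.

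Among the fibrillar genes, 1 of 7 was called, COL5A1, and the class median was −0.073 with 5 of 7 values negative. With COL27A1, a fibril-forming type outside these numbers, counted in the class, the median was −0.13. COL1A1 (ENSG00000108821.13; GRCh38, chromosome 17, 50183289 to 50201632, minus strand) encodes the chain present as a pair in each type I molecule. It stood at 11773 and 12705 CPM in SCR and at 11408 and 10080 CPM in siTLN1, so both siTLN1 libraries were below both SCR libraries. The log2 fold change of COL1A1 was −0.19 (SE 0.12, 95% interval −0.45 to 0.075, adjusted p 0.444). COL1A2, the partner chain (ENSG00000164692.18; chromosome 7, 94394895 to 94431227, plus strand), stood at 8303 and 8359 CPM in SCR and at 8428 and 7413 CPM in siTLN1, with siTLN1 library a above and library b below both controls. That of COL1A2 was −0.073 (95% interval −0.33 to 0.18, adjusted p 0.809). COL3A1, the single chain of type III, had 4081 and 3954 CPM in SCR and 4441 and 3580 CPM in siTLN1, so the siTLN1 values enclosed the control values. The fitted value for COL3A1 was −0.0025 (95% interval −0.26 to 0.25), and its sign was positive in the fits that left out SCR library a (0.021) or siTLN1 library b (0.15). Changes of types I and III within these intervals were not resolved with 2 libraries a group.

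The fitted log2 fold changes of the type V chains differed in sign, and differences between the chains were not tested. COL5A1 (ENSG00000130635.16; chromosome 9, 134641803 to 134844843, plus strand) encodes the alpha-1 chain that every common type V molecule needs. It stood at 1402 and 1490 CPM in SCR (mean 1446 ± 62.2, SD, n = 2) and at 1167 and 1002 CPM in siTLN1 (mean 1084 ± 116, SD, n = 2), and the groups did not overlap. The siTLN1 mean was 75.0% of the SCR mean, and the log2 fold change was −0.42 (SE 0.11, adjusted p 0.0290). With 1 library left out, the call held without siTLN1 library a (−0.53, adjusted p 0.0417) and was lost without SCR library a (−0.46, 0.0538), SCR library b (−0.37, 0.185) and siTLN1 library b (−0.31, 0.248). In such fits 1 group has a single library, which is assumed to vary like the others.

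COL5A3, which encodes the alpha-3 chain (ENSG00000080573.7; chromosome 19, 9959561 to 10010504, minus strand), had a log2 fold change close to that of COL5A1 but did not pass over all genes. It stood at 237 and 219 CPM in SCR and at 202 and 136 CPM in siTLN1, again without overlap, and siTLN1 library b was the farther from the controls. For COL5A3 the log2 fold change was −0.43 (SE 0.15, adjusted p 0.141). It passed without SCR library b (−0.48, adjusted p 0.00647) and without siTLN1 library a (−0.74, 0.00274), and was −0.17 without siTLN1 library b. COL5A2, the alpha-2 chain (ENSG00000204262.14; chromosome 2, 189031898 to 189225312, minus strand), stood at 1085 and 953 CPM in SCR and at 1255 and 955 CPM in siTLN1, so the groups overlapped. For COL5A2 the log2 fold change was 0.12 (95% interval −0.16 to 0.39), and −0.092 without siTLN1 library a. COL11A2, a chain of the cartilage type XI, was sparse, at 0.849 and 1.32 CPM in SCR and 0.742 and 1.49 CPM in siTLN1, where both libraries lettered b were the higher ones.

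The ratio between chains of 1 type is measured within a library and so does not depend on how libraries are scaled. The RPKM ratio of COL5A1 to COL5A2 was 0.848 and 1.03 in SCR and 0.609 and 0.688 in siTLN1, a drop of 0.53 on the log2 scale with no overlap. The ratio of COL5A3 to COL5A2 went from 0.236 and 0.248 to 0.174 and 0.154, also without overlap. COL5A1 to COL5A3 stayed between 3.51 and 4.46 in all 4 libraries, with the siTLN1 values on either side of the controls. The ratio of COL1A1 to COL1A2 was 1.56 and 1.67 in SCR and 1.491 and 1.498 in siTLN1, a smaller separation of −0.11 on the log2 scale. With 2 libraries a group, an exact permutation test of a single ratio cannot give a p below 0.333, so these separations are descriptions.

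**Figure D3:**
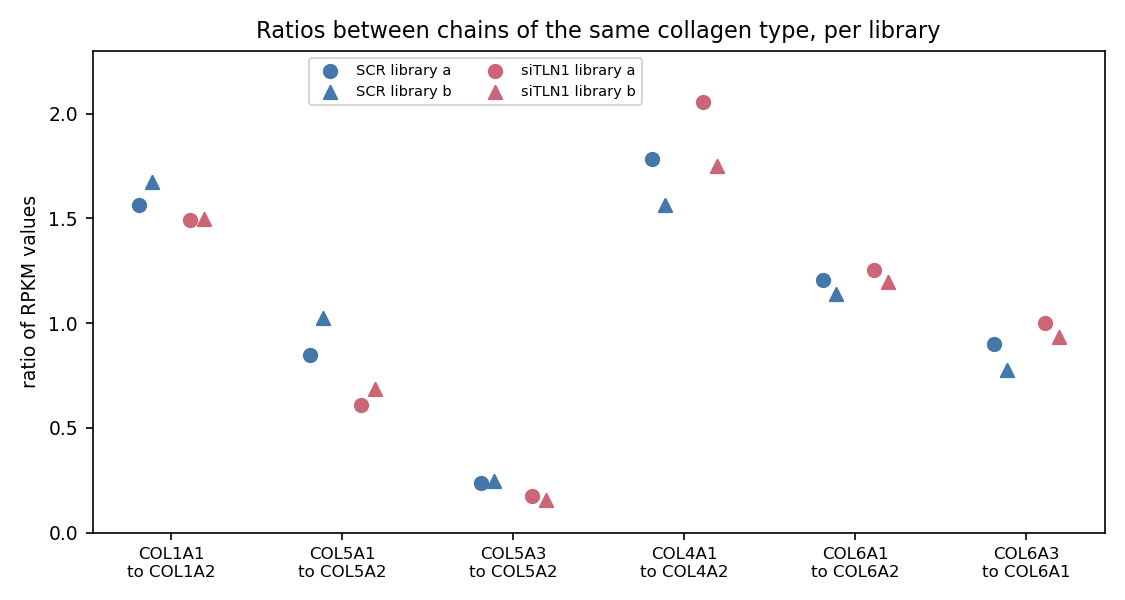
Ratio of RPKM values (y axis, linear from 0) between chains of the same collagen type in each library, for 6 chain pairs on the x axis (circles, libraries a; triangles, libraries b; blue, SCR; red, siTLN1). Both ratios against COL5A2 are lower in both siTLN1 libraries, while COL4A1 to COL4A2 and COL6A1 to COL6A2 overlap between the groups.

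No basement membrane gene was called (0 of 3; none had an unadjusted p under 0.05 in edgeR, and DESeq2 called none either). COL4A1 (ENSG00000187498.16; chromosome 13, 110148963 to 110307157, minus strand) and COL4A2 (ENSG00000134871.19; chromosome 13, 110305812 to 110513209, plus strand) encode the chains of the most widespread type IV molecule and are transcribed in opposite directions from neighbouring starts. COL4A1 stood at 1663 and 1446 CPM in SCR and at 1964 and 1381 CPM in siTLN1. COL4A2 stood at 1227 and 1215 CPM in SCR and at 1255 and 1037 CPM in siTLN1. In both genes the siTLN1 libraries enclosed the controls, with library a the highest and library b the lowest of the 4. Their log2 fold changes were 0.11 (95% interval −0.22 to 0.43) and −0.092 (−0.32 to 0.14), and each changed sign with 1 library left out (COL4A1 to −0.17 without siTLN1 library a, COL4A2 to 0.044 without siTLN1 library b). The RPKM ratio of COL4A1 to COL4A2 was 1.78 and 1.56 in SCR and 2.06 and 1.75 in siTLN1, with overlap. COL4A5, a chain of more specialised basement membranes on the X chromosome, was at 2.01 and 1.64 CPM in SCR and 3.08 and 1.45 CPM in siTLN1. Its log2 fold change of 0.27 became −0.33 without siTLN1 library a, and the class median of 0.11 became −0.23 without that library.

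The RefSeq starts of COL4A1 and COL4A2 (GRCh38.p14) lie at the ends of a stretch of 128 bases, shown because both genes begin there, in opposite directions. It is written on the plus strand, from the start of COL4A1 to that of COL4A2, with a CCAAT word and a GGGCGG word, found by a search of both strands for these letters, in capitals.
COL4A1 to COL4A2, chr13:110307157-110307284: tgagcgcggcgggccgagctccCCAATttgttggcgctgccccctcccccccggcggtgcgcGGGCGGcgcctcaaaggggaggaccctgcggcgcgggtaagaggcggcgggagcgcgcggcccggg
Both words are common. Among 27305 RefSeq windows of 250 bases before to 50 after a start, 35.7% hold CCAAT and 44.6% hold GGGCGG on either strand, and among the 22 collagen genes with such a window, 6 and 15 do. A match is a description of the letters and not a measured binding site.

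Among the other types, 3 of 19 genes were called, with a class median of −0.0035. Type VI, whose chains form beaded filaments around cells, had the highest RPKM of them. COL6A1 stood at 2617 and 2872 CPM in SCR and at 2822 and 2529 CPM in siTLN1, and COL6A2, its tandem neighbour on chromosome 21, at 2181 and 2531 CPM against 2257 and 2119 CPM. COL6A3, the longest of these chains, stood at 8643 and 8195 CPM in SCR and at 10338 and 8679 CPM in siTLN1, above both controls, though library b exceeded the higher control only slightly. Their log2 fold changes were −0.037, −0.11 and 0.18, none past the threshold, and the upper bound of the 95% interval of COL6A3 was 0.44. The RPKM ratio of COL6A3 to COL6A1 was 0.901 and 0.778 in SCR and 0.999 and 0.936 in siTLN1. COL6A6, an alternative chain related to COL6A3 (ENSG00000206384.10; chromosome 3, 130560334 to 130678155, plus strand), stood at 35.6 and 26.0 CPM in SCR and at 65.9 and 43.3 CPM in siTLN1. In each group library a was the higher one, and the groups did not overlap. The log2 fold change of COL6A6 was 0.82 (SE 0.24, adjusted p 0.121). It passed without SCR library a (1.07, adjusted p 6.96e-12), SCR library b (0.62, 0.000303) or siTLN1 library b (1.10, 1.32e-06) and not without siTLN1 library a (0.50, 0.131). Each of those fits compares 1 library with 2.

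Type VIII is the short-chain collagen of Descemet's membrane and vessel walls, and 1 of its genes was called. COL8A2 (ENSG00000171812.13; chromosome 1, 36095239 to 36125222, minus strand) rose from 7.11 and 7.98 CPM in SCR to 11.04 and 10.94 CPM in siTLN1, where the libraries lay close together. The rise was 0.54 on the log2 scale (SE 0.13, adjusted p 0.0205). The call held without SCR library b (0.63, adjusted p 0.0112) and was lost without SCR library a (0.46, 0.0851), siTLN1 library a (0.54, 0.139) and siTLN1 library b (0.55, 0.0686). COL8A1 stood at 386 and 346 CPM in SCR and 402 and 329 CPM in siTLN1, with a log2 fold change of −0.0035 (95% interval −0.23 to 0.23). The RPKM ratio of COL8A1 to COL8A2 went from 27.0 and 21.5 in SCR to 18.0 and 14.9 in siTLN1, without overlap.

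COL17A1 (ENSG00000065618.21; chromosome 10, 104031286 to 104085880, minus strand) encodes a transmembrane collagen of hemidesmosomes, the junctions that fix epithelial cells to the basement membrane. It fell from 5.54 and 4.85 CPM in SCR to 3.19 and 2.94 CPM in siTLN1, from 176 and 169 raw counts to 116 and 138. The siTLN1 mean was 58.9% of the SCR mean (log2 fold change −0.76, SE 0.17, adjusted p 0.0118), and the groups did not overlap. Without siTLN1 library a the value was −0.82 (adjusted p 0.0611) and without siTLN1 library b −0.70 (0.0753), while both fits without an SCR library kept the call (−0.67 and −0.86). The summed level of the epithelial markers was also lower in both siTLN1 libraries, and its part in this result was not tested. KRT14 carried that difference (109 and 127 CPM in SCR, 66.2 and 68.1 CPM in siTLN1). Without KRT14, singled out after its values were seen, the sums overlapped, at 123 and 153 CPM in SCR and 132 and 143 CPM in siTLN1.

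COL25A1 (ENSG00000188517.16; chromosome 4, 108808725 to 109302752, minus strand) encodes a transmembrane collagen known mainly from neurons and motor innervation. It rose from 0.346 and 0.201 CPM in SCR to 0.934 and 0.702 CPM in siTLN1, which rests on 11 and 7 raw counts against 34 and 33. All siTLN1 values lay above the SCR values. SCR library b, with 7 counts, was under the filter's minimum count of 10. The gene therefore passed that filter through its siTLN1 libraries, where it is high. The log2 fold change of 1.56 had a 95% interval of 0.68 to 2.45 (SE 0.42, adjusted p 0.0342). With no filter on low counts the value was 1.58 but the adjusted p 0.0550, and DESeq2 gave no adjusted p for it because of its low counts. The call was lost without SCR library b (1.21, adjusted p 0.212) and without siTLN1 library a (1.37, 0.208).

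**Figure D4:**
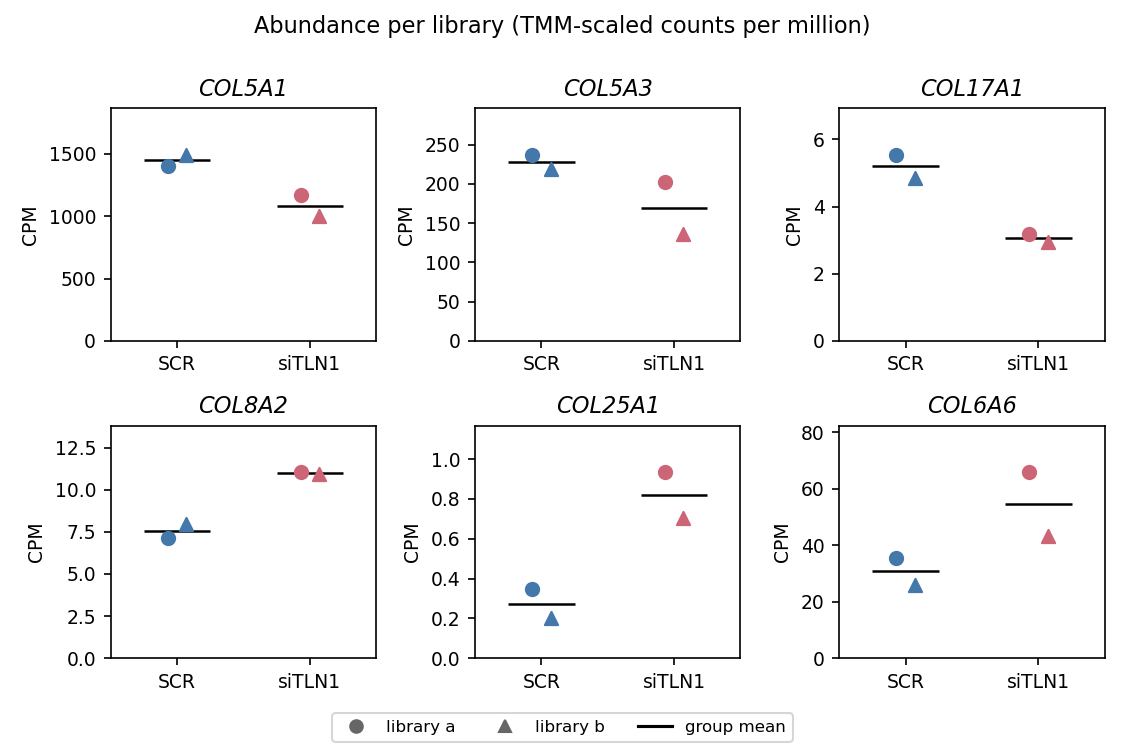
Abundance (TMM-scaled CPM, y axes from 0) of 6 collagen genes in each library of SCR and siTLN1 (circles, library a; triangles, library b; lines, group means). COL5A1, COL17A1, COL8A2 and COL25A1 passed the threshold over all genes, and COL5A3 and COL6A6 did not although their groups do not overlap, and siTLN1 libraries a and b lie apart in both (202 and 136 CPM for COL5A3, 65.9 and 43.3 CPM for COL6A6).

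None of the remaining genes was called with all libraries. The standard errors of the less abundant ones ran from 0.12 (COL27A1) to 0.57 (COL14A1 and COL21A1). COL12A1, COL7A1, COL16A1 and COL18A1 stood at mean SCR levels of 43.5, 42.7, 28.7 and 26.6 RPKM. Their log2 fold changes were 0.20, −0.050, 0.0086 and −0.10, none past the threshold (lowest adjusted p 0.486), and the count of COL18A1 is uncertain because 18.5% of its exon bases also lie in exons of SLC19A1 on the opposite strand, which the counting did not separate. COL13A1, a transmembrane collagen of neuromuscular junctions, stood at 34.6 and 49.3 CPM in SCR and 50.7 and 54.2 CPM in siTLN1. The value for COL13A1 was 0.32 (adjusted p 0.227), which passed without SCR library b (0.60, adjusted p 0.000366). COL14A1, a fibril-surface collagen, overlapped between the groups and was higher in both libraries lettered a, with 18.6 and 21.3 CPM in the libraries lettered a and 9.16 and 11.9 CPM in those lettered b (SCR before siTLN1). The value for COL14A1 was 0.25 (SE 0.57), and it passed without SCR library a (0.85, adjusted p 0.000574) but was −0.17 without SCR library b. COL27A1, a fibril-forming type placed among the others by number, stood at 15.8 and 17.2 CPM in SCR and 13.9 and 11.6 CPM in siTLN1 (log2 fold change −0.38, adjusted p 0.0836). COL19A1, a minor fibril-associated type, stood at 1.32 and 1.15 CPM against 0.769 and 0.532 CPM (−0.95, adjusted p 0.0797). Both passed once each library's trend with gene length was removed (COL27A1 −0.39, adjusted p 0.0307; COL19A1 −0.95, 0.0478). COL15A1 differed by −0.066, and the sparse COL9A2 and COL21A1 by 0.25 and −0.093, with standard errors of 0.29 and 0.57 for the last pair.

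Several genes that modify, export, process or bind collagen were called, and most of these were lower in siTLN1. Of 95 genes on 7 lists, 84 were tested and 16 (19.0%) were called, against 6.07% of all genes. Of these 16, 13 were lower and 3 higher, where 3.77% and 2.3% of all genes were called lower and higher. The median log2 fold change of the 84 was −0.035. The lists were chosen with earlier results of these data known, so their share called is not independent of that choice. Among enzymes and chaperones that act on new chains in the endoplasmic reticulum, 4 of 21 were called, all lower, with a list median of −0.083. P4HA1, a catalytic subunit of prolyl 4-hydroxylase, which stabilises the triple helix, fell from 126 and 129 CPM in SCR to 45.5 and 64.5 CPM in siTLN1 (log2 fold change −1.21, standard error 0.14, adjusted p 0.000275). P3H1 and P3H2, which hydroxylate prolines at another carbon, fell by 0.46 and 0.41 on the log2 scale, and COLGALT1, which attaches galactose to hydroxylysine, by 0.35. The genes of this list with the highest CPM, the collagen chaperone SERPINH1 (log2 fold change −0.12) and P4HB (−0.22), were not called. Of the 16 called genes on all lists, 5 hold the word shown above in the 3′ UTR of the chosen transcript. All 5 were lower (P4HA1, COLGALT1, SEC23A, ITGA2 and THBS2). Over all protein-coding genes tested, 158 of the 177 called genes with a 3′ UTR copy were lower too. The word occurs in 5 of 5 protein-coding transcripts of P4HA1, 1 of 1 of ITGA2 and 3 of 4 of THBS2. For SEC23A it occurs in 3 of 11 and for COLGALT1 in 1 of 3. As the word was chosen for going with lower values in these data, this direction is not independent of the choice. In the coding sequence alone the word is held by ADAMTS2 and SPARC, which were lower, and DCN, which was higher. The other 8 (6 lower, 2 higher) lack it in the chosen transcript. DDR1, among these 8, holds it in 9 of 43 protein-coding transcripts. The P4HA1 call held in all 4 fits with 1 library left out (−1.48 to −0.98), that of P3H1 in 3 (not without siTLN1 library a, adjusted p 0.0826), that of P3H2 in 2 (not without either siTLN1 library) and that of COLGALT1 in none of the 4 (−0.37 to −0.33).

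In the export list, which holds parts of the COPII coat that carries procollagen out of the endoplasmic reticulum, 2 of 12 were called and the median was −0.044. SEC23A fell from 237 and 207 CPM to 94.3 and 98.4 CPM (−1.20 on the log2 scale) and held its call in all 4 fits with 1 library left out. SEC13 fell by 0.34 (adjusted p 0.0464) and lost its call without SCR library b or siTLN1 library a (highest adjusted p 0.444). SEC31A (−0.13) and TFG (−0.0094) were not called. Of 14 processing and cross-linking genes, ADAMTS2, a protease that removes the procollagen N-propeptide, fell by 0.37 and ADAMTS14, which has the same kind of activity, rose by 0.57, with a list median of 0.049. ADAMTS14 lost its call without siTLN1 library a (adjusted p 0.0741), and ADAMTS2 kept it only without SCR library b. PXDN, which cross-links type IV collagen, and LOXL2, a lysyl oxidase, had values of 0.16 and −0.32 and were not called.

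Among 9 fibril-associated genes tested of 14 listed, 4 were called and the median was −0.027. SPARC, a glycoprotein that binds collagen, fell from 5119 and 4917 CPM to 3705 and 3500 CPM (−0.48, adjusted p 0.0161), and DCN, the collagen-binding proteoglycan decorin, rose from 337 and 339 CPM to 471 and 442 CPM (0.43, adjusted p 0.0103). ASPN (−2.19) and THBS2 (−0.89) were also lower, at mean SCR levels of 0.940 and 2.15 CPM. ASPN, at 0.220 and 0.192 CPM in siTLN1, met the filter on low counts only through its SCR libraries. DESeq2 gave ASPN no adjusted p. ASPN kept its call with each library left out, DCN lost it without siTLN1 library a (adjusted p 0.131), and SPARC and THBS2 lost it in each of the 4 such fits (highest adjusted p 0.142 and 0.284). FN1, the gene of this list with the highest CPM, had a value of 0.25 and was not called.

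Of 8 collagen receptor genes tested, DDR1, a receptor tyrosine kinase activated by collagen, fell from 45.8 and 47.7 CPM to 24.6 and 23.9 CPM (−0.95, adjusted p 1.88e-05). The integrin subunit ITGA2 fell by 0.34 and ITGA10 rose by 0.82, while ITGB1 (0.15) and ITGA11 (−0.15) were not called, and the median was −0.043. The calls of DDR1 and ITGA10 held with each library left out, and that of ITGA2 held only without SCR library b. Of 13 proteases and inhibitors, CTSL, a lysosomal protease, fell by 0.35 and kept its call only without SCR library a, while CTSB (0.092) and the gelatinase MMP2 (0.34, adjusted p 0.0668) were not called, and the median was 0.12. Of 9 basement membrane partners of type IV collagen, SPARC alone was called, and the median was −0.039. With siTLN1 library a left out, 6 pathway genes were called rather than 16, while calls over all genes fell from 980 to 324 (1.95%). With no filter on low counts 10 were called, among 663 of all genes (2.03%).

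**Figure D5:**
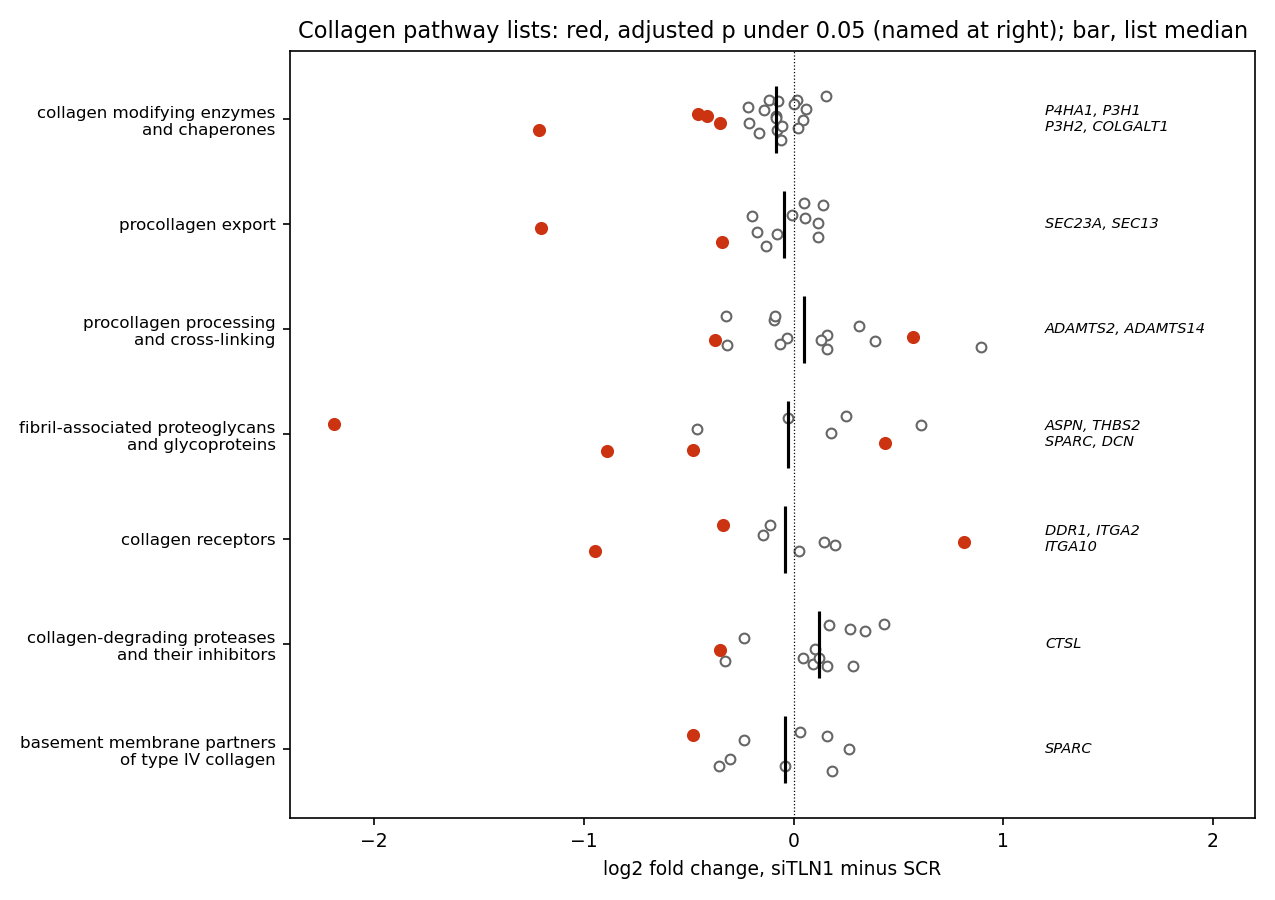
Log2 fold change (siTLN1 minus SCR, x axis) of every tested gene on the 7 collagen pathway lists (y axis, with vertical jitter). Red points mark genes with an adjusted p under 0.05, named at the right from lowest to highest, and black bars mark list medians, which lie between −0.083 and 0.12.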

How the data were processed

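RNA from 2 SCR and 2 siTLN1 libraries was analysed, grouped by their titles. Raw counts were deposited by the authors. They come from featureCounts 2.0.0 run on read pairs against GENCODE 33 (GRCh38) with the strand ignored, per the file headers, and the submitters' processing notes list STAR 2.7.9a and edgeR 3.34.1. Exon lengths are a further column of that deposited table. The deposited log2 CPM values cover 16137 genes, and sorted within groups 100% equalled TMM-scaled log2 CPM from edgeR to 6 decimals. Unmapped columns of sample values numbered 0.

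From the counts were computed TMM-scaled CPM, RPKM and edgeR 4.0.16 quasi-likelihood fits (R 4.3.3, filterByExpr with minimum count 10 and minimum total 15, robust), with Benjamini-Hochberg adjustment over 16137 genes. SDs are over 2 libraries. The libraries held 99.9% of counts in tested genes. The biological coefficient of variation was 0.0805. On simulated counts for these genes, 152 of 200 changed 2-fold were recovered with 11 false calls.

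Alternatives used limma 3.58.1 and DESeq2 1.42.0, other scalings and filters, a length trend removed (span 0.3), each library left out, and a replicate block. Members, lists and the rule for named genes (called members, the 8 highest by RPKM, all fibrillar and type IV genes, 3 extremes a direction, called list genes and the 2 most abundant a list) were chosen with earlier results of these data known. Amino acid sequences were not used here. Copies of the searched word in 3′ UTRs of collagen genes are not reported here.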

Additional observations from a re-analysis of the deposited data

How the results depend on the processing

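The 4 called collagen genes remained those called with RLE scaling, total counts only, a mean of at least 10 counts (where COL21A1 was not tested), the legacy method, limma-voom and limma-trend. With no filter, 1 was higher, and the pathway lists held 10 called genes, 7 of them lower. More genes enter that adjustment. With the length trend removed, 4 collagen genes were lower and 5 of the other types called, among 1523 of all genes. DESeq2 called 1 higher, giving no adjusted p for 5 members (COL9A2, COL11A2, COL19A1, COL21A1 and COL25A1). COL3A1 (0.0089), COL8A1 (0.0079) and TFG (0.0033) changed sign with no filter, COL16A1 (−0.0057) without the length trend, and COL11A2 (−0.0080) with limma-trend, with and without the block. The cause was not tested.

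The replicate numbers of the log2 CPM columns gave a correlation of 0.19 between the groups' replicate differences over all genes and, as a description, 0.51 over the collagen genes, and no label states a shared preparation. With the replicate block, 11 collagen genes were called (6 higher, 5 lower), 2 of them fibrillar and 9 of other types, and 37 pathway genes (13 higher, 24 lower), among 3645 of all genes. The 7 added members were COL5A3, COL6A6, COL12A1, COL13A1, COL14A1, COL19A1 and COL27A1.

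With 1 library left out, called collagen genes ranged from 2 to 5, higher ones from 0 to 3, lower ones from 0 to 2, fibrillar ones from 0 to 2 and other types from 0 to 4, while calls over all genes ranged from 324 to 1100. Pathway genes ranged from 6 to 14 (1 to 5 higher, 5 to 10 lower). The medians ranged from −0.15 to 0.10 over all members, −0.20 to −0.067 for fibrillar, −0.23 to 0.34 for basement membrane and −0.11 to 0.13 for other types. Log2 fold changes that changed sign ranged from −0.17 to 0.020 for COL1A2, −0.16 to 0.15 for COL3A1, −0.17 to 0.34 for COL4A1, −0.23 to 0.044 for COL4A2, −0.33 to 0.76 for COL4A5, −0.092 to 0.30 for COL5A2, −0.12 to 0.044 for COL6A1, −0.21 to 0.0058 for COL6A2, −0.20 to 0.093 for COL7A1, −0.15 to 0.14 for COL8A1, −0.55 to 0.45 for COL11A2, −0.029 to 0.40 for COL12A1, −0.22 to 0.85 for COL14A1, −0.099 to 0.12 for COL16A1, −0.24 to 0.32 for COL21A1, −0.27 to 0.060 for SERPINH1, −0.0013 to 0.31 for PXDN and −0.039 to 0.025 for TFG.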
